A study of Mus musculus with 6 samples.

Results

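The genes described here are 32 factors of ribosome biogenesis and RNA polymerase I transcription, measured in mouse hematopoietic stem cells (HSCs) with and without Emp1. They were taken by name: every row of the deposited expression matrix whose Ensembl identifier carries one of 32 gene symbols in the GENCODE mouse annotation (GRCm38), which gave 32 rows of 55401. The rule itself uses names and no measured value, although the symbols were picked with earlier results of these data known. The samples were bulk RNA-seq libraries of HSCs sorted from bone marrow as CD48-, CD150+ LSK cells (lineage-negative, Sca-1+, Kit+). The Emp1-deficient group held 3 libraries from Emp1fl/fl,Tie2-Cre mice, in which both Emp1 alleles are flanked by loxP sites and Cre is driven by the Tie2 promoter, and the control group held 3 libraries from Emp1fl/fl mice, which carry the same floxed alleles without Cre. The Tie2 promoter is active in endothelial cells and in the blood lineage that arises from them, so deletion is not restricted to HSCs. Only the Emp1-deficient group carries Cre, so loss of Emp1 and presence of Cre cannot be told apart. The labels give no age, sex or treatment, and they do not say whether the replicates were separate mice, so the p-values reflect the spread between libraries, which may be technical.

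Ribosomes are assembled in the nucleolus. RNA polymerase I transcribes a long ribosomal RNA precursor, small nucleolar ribonucleoproteins (snoRNPs) methylate and pseudouridylate it, and large assemblies cut and fold it into the small and the large subunit while ribosomal proteins are added. In the blood system, stem cells are known for a low rate of protein synthesis, and defects of ribosome assembly can cause inherited marrow failure. DKC1, NHP2 or NOP10, whose products are also part of telomerase, can be mutated in dyskeratosis congenita, a marrow failure tied to telomerase.

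What the members share at the DNA level was looked at in their promoter windows. RefSeq windows on GRCm38.p6, reaching from 250 bases before to 50 bases after the annotated start, were matched by symbol for 27 of the 32 members. The E-box CACGTG, a palindrome that reads the same on both strands and that MYC with MAX can bind, was present in the windows of 6 of these 27 genes (22.2%), against 11.7% of 10196 tested genes and 18.4% of 98 other genes of the pathway with a window. CCGGAA, the core recognised by ETS-family factors, was searched on both strands and found in 11 of 27 members (40.7%), against 31.6% of tested genes and 55.1% of the other pathway genes. TATAAA, likewise on both strands, was found in 2 members (7.41%), against 8.87% of tested genes and 6.12% of the other pathway genes. Matches of different motifs cannot overlap here, since on either strand no ending of one motif, of any length, equals a beginning of another. The 6 windows that hold the E-box are printed, a choice made after the libraries' values were seen. Of the 5 members whose libraries separated by genotype, described further on, 4 are among them. How often the E-box occurs among all tested genes that separated was not counted, so no link of motif and genotype is read from this. Each runs 5′ to 3′ in the direction of transcription, from 75 bases before the start to 49 bases after the start base, with the E-box in capitals. Their positions are chr8:106893565-106893689 (plus strand) for Utp4, chr17:71616140-71616264 (plus strand) for Wdr43, chr10:88826765-88826889 (minus strand) for Utp20, chr11:72441252-72441376 (plus strand) for Mybbp1a, chr6:125131808-125131932 (plus strand) for Nop2 and chr11:3963900-3964024 (plus strand) for Pes1.
Utp4: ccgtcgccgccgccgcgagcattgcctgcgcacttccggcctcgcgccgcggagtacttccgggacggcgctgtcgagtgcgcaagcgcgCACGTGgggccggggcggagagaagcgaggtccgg
Wdr43: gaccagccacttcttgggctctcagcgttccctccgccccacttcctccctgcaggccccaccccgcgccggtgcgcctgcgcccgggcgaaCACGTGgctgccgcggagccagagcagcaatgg
Utp20: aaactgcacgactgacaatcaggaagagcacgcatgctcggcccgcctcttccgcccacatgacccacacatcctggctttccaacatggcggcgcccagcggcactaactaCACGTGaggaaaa
Mybbp1a: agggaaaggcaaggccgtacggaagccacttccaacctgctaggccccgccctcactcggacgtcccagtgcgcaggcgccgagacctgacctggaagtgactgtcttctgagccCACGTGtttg
Nop2: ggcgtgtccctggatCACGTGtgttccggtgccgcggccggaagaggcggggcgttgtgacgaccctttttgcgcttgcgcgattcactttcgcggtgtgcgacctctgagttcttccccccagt
Pes1: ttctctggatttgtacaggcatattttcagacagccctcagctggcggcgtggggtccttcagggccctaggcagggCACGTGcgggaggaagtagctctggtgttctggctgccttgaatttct
In Pes1, Utp4, Wdr43, Utp20 and Mybbp1a the first base of the E-box lies 2, 15, 17, 37 and 40 bases after the start base, and in Nop2 it lies 60 bases before it. An E-box inside the 50 bases from the start onward was thus found in 5 of 27 members (18.5%), against 1.99% of tested genes and 7.14% of the other pathway genes, a split of the window that was chosen after the positions were seen. For Wdr43 RefSeq also lists a gene start further upstream, at 71616178, and counted from there its E-box would fall outside these 50 bases. Among the genes with an E-box, Utp4 and Wdr43 stood higher and Utp20 and Mybbp1a lower in the Emp1-deficient libraries, so the motif was present in windows of genes that stood apart in either direction. The E-box members Nop2 and Pes1 overlapped between genotypes.

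Levels are given as deposited, in FPKM (fragments per kilobase of exon, scaled to the library's mapped fragments), a unit that is relative to each library's own total and allows comparison between genes per length. Differences are Emp1-deficient minus control on the log2(FPKM + 1) scale, fitted with limma across all 15723 genes that reached 1 FPKM in 3 or more of the 6 libraries, with p-values adjusted over all of them by Benjamini-Hochberg. Emp1 itself was at 0.58, 0.70 and 0.27 FPKM in Emp1-deficient libraries, against 3.25, 2.64 and 4.32 FPKM in controls, so the libraries of the groups did not overlap. Genes at 1 FPKM or more numbered 14334 to 16678 in Emp1-deficient and 14806 to 18048 in control libraries. Emp1-deficient replicate 3 had the fewest such genes and the smallest part of its FPKM in genes of cytosolic ribosomal proteins (9.46%, with 11.2% to 13.1% in the other 5 libraries). The genes of the markers selected by the gate were present: Slamf1, which encodes CD150, at 20.07 to 27.56 FPKM in Emp1-deficient libraries and 15.12 to 20.78 FPKM in controls, and Ly6a, which encodes Sca-1, at 62.57 to 81.24 FPKM in Emp1-deficient libraries and 89.2 to 97.18 FPKM in controls, without overlap. Of 11 stem cell marker genes 3 were higher and 8 lower, among them the transcription factor gene Hlf at 32.9 to 43.31 FPKM in Emp1-deficient libraries and 47.08 to 64.57 FPKM in controls, and 0 of the 11 passed by limma (at an unadjusted p under 0.05, 1 higher and 2 lower). Cd48, which the gate selects against as a protein, was listed at 22.89 to 47.25 FPKM in Emp1-deficient libraries and at 26.05 to 49.62 FPKM in controls. Because the RNA came from sorted pools, fewer cells of a type and less RNA per cell cannot be told apart.

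All 32 members passed the expression filter, and none differed between the genotypes by limma at an adjusted p under 0.05, against 0.267% of all tested genes (42 genes). At an unadjusted p under 0.05, 3 members were higher (9.38%), against a background of 6.5% of tested genes, and 0 were lower, against 9.72%. The 3 were Utp4, Wdr43 and Gar1, and 3 of 32 is close to the share over all genes. Among tested genes at or above the lowest member's mean level, 11.0% were higher and 10.9% lower at that threshold. The median difference over the members was 0.029, with 19 of 32 higher and 13 lower, beside a median of -0.046 over all tested genes and 0.0051 over the 6984 tested genes at or above the lowest member's mean level. The direction of the members depends on the scaling: after rescaling to TPM, 14 of 32 were higher and their median was -0.021, while that of all genes was -0.098, and after quantile normalization 17 were higher with a median of 0.0046. For 17 members the difference was smaller than 0.1 in either direction. The 95% limma interval stayed within a 1.5-fold change (0.58 on the log2 scale) for 28 of 32 members, and those reaching past it were Nop56, Gar1, Utp4 and Wdr43. The narrowest interval reached 0.21 and the widest 0.41 to each side of its estimate, so changes smaller than these could not be resolved with 3 libraries a group.

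**Figure D1:**
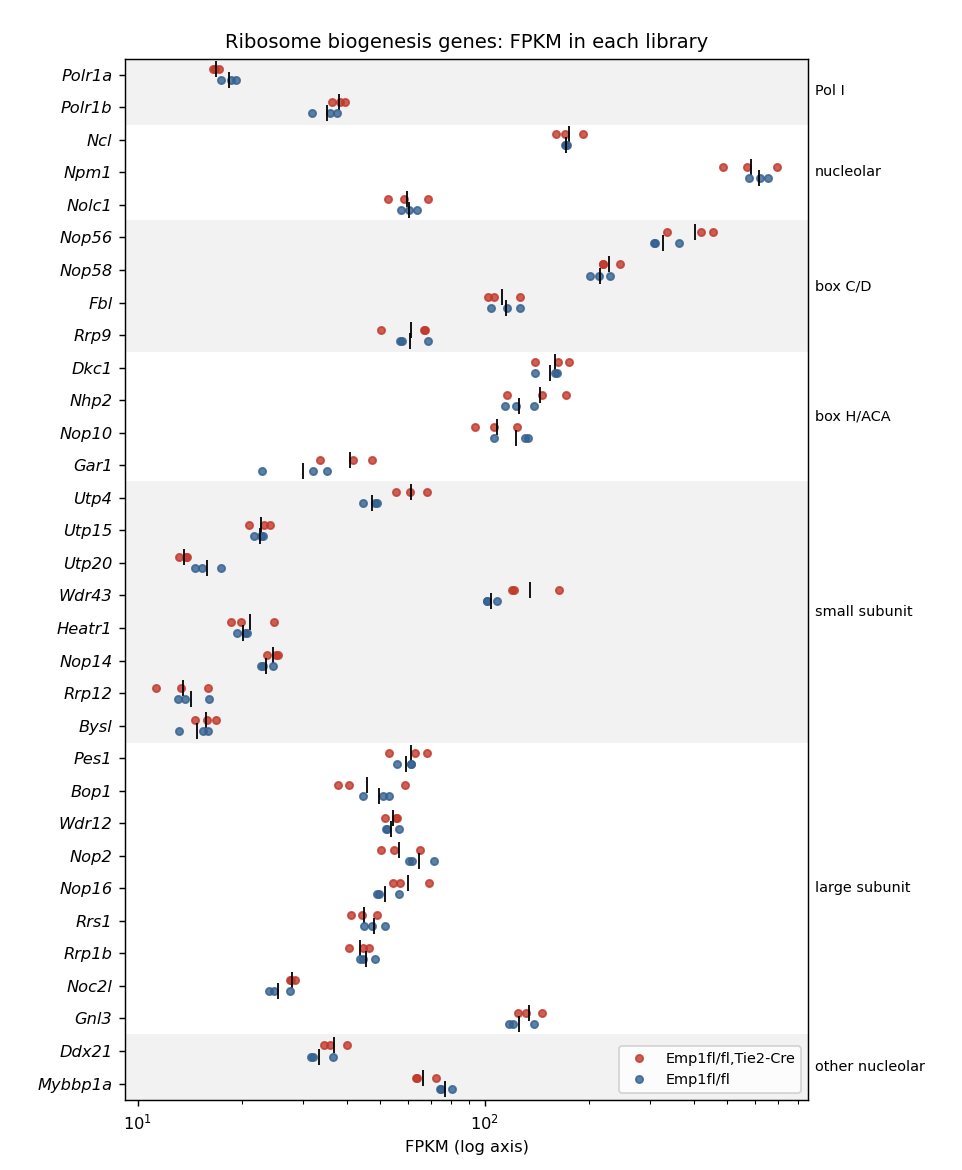
FPKM of the 32 members in each library on a log axis, grouped by role, with Emp1-deficient libraries (Emp1fl/fl,Tie2-Cre, red) drawn above control libraries (Emp1fl/fl, blue) and a vertical tick at each group's mean (n = 3 each). The colours overlap for 27 members; Utp4 and Wdr43 lie to the right and Polr1a, Utp20 and Mybbp1a to the left of their controls.

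The members spanned a wide range of levels, all above the middle of the tested genes. Npm1, at a mean of 602 FPKM over the 6 libraries, stood at percentile 99.04 of tested genes, followed by Nop56 at 365 and Nop58 at 221 FPKM. At the low end Rrp12, Utp20 and Bysl had means of 13.9, 14.7 and 15.3 FPKM, near percentile 56 of tested genes (55.6, 56.9 and 57.7). Neighbours at that end lay within their spread of each other: Bysl was at 15.7 ± 1.08 FPKM in Emp1-deficient libraries and 14.8 ± 1.495 FPKM in controls (SD, n = 3 each), and Rrp12 at 13.5 ± 2.33 FPKM in Emp1-deficient libraries and 14.2 ± 1.57 FPKM in controls. Per length, transcripts of the snoRNP scaffold and nucleolar proteins were thus far more abundant than those of the polymerase subunits and of the longest processome proteins.

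The polymerase subunits had small differences of opposite sign. Polr1a and Polr1b encode the 2 large subunits that form the catalytic centre of RNA polymerase I. Polr1a (chromosome 6, 71909053 to 71984935) had 17.08, 16.45 and 16.69 FPKM in Emp1-deficient libraries, against 19.14, 18.59 and 17.32 FPKM in controls. Every Emp1-deficient library was below every control, by a small margin, and the fitted difference was -0.12 (SE 0.11, limma adjusted p = 0.642). Polr1b had 38.29, 36.25 and 39.57 FPKM in Emp1-deficient libraries and 37.61, 35.68 and 31.79 FPKM in controls, with overlapping libraries and a difference of 0.12 (SE 0.10, limma adjusted p = 0.642). As a share of the pair's summed FPKM within each library, Polr1a made up 30.6 ± 0.809% in Emp1-deficient and 34.4 ± 0.783% in control libraries (SD, n = 3 each), and these shares did not overlap. Over single genes, the groups did not overlap for 2 members that were higher (6.25%, background 8.91%) and 3 that were lower (9.38%, background 13.2%), both below the shares of all tested genes.

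**Figure D2:**
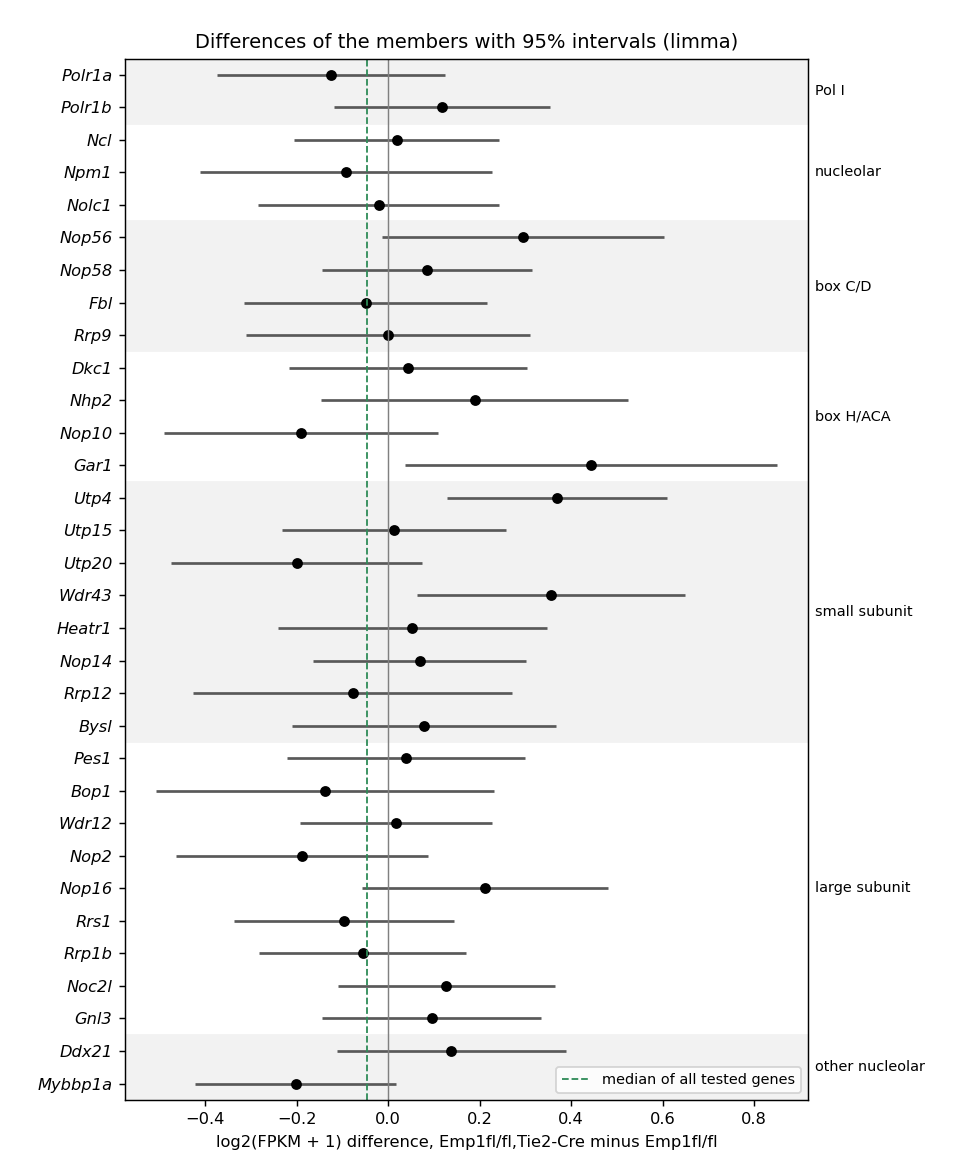
Fitted difference in log2(FPKM + 1), Emp1-deficient minus control, with its 95% limma interval for each member, grouped by role, and the median of all tested genes (-0.046) as a dashed line. Intervals lie wholly above 0 for 3 members (Utp4, Wdr43 and Gar1) and wholly below 0 for none.

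The genes of the abundant nucleolar proteins overlapped between genotypes. Ncl encodes nucleolin, which binds nascent ribosomal RNA and chromatin, and averaged 174 ± 15.8 FPKM in Emp1-deficient and 172 ± 1.22 FPKM in control libraries. Npm1 encodes nucleophosmin, a histone and assembly chaperone of the granular nucleolus that is often mutated in acute myeloid leukaemia. It had 696.21, 571.64 and 487.77 FPKM in Emp1-deficient libraries, against 579.67, 654.41 and 619.72 FPKM in controls. The Emp1-deficient libraries held both the highest and the lowest value, and the difference was -0.09 (SE 0.14, limma adjusted p = 0.811). Npm1 has 5 near-identical pseudogene copies in the annotation (at least 95% identity over at least 300 bases), with which reads could be shared. Together these were listed at 19.2 FPKM in Emp1-deficient and 22.4 FPKM in control libraries, far below Npm1 itself. Nolc1, whose product accompanies snoRNPs between Cajal bodies and the nucleolus, averaged 59.8 ± 8.19 FPKM in Emp1-deficient libraries and 60.4 ± 3.20 FPKM in controls.

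Among the box C/D snoRNP genes, whose particles methylate ribosomal RNA at the ribose, Nop56 was the member that stood furthest out. Nop56 and Nop58 encode the paired scaffold proteins, Fbl the methyltransferase fibrillarin, and Rrp9 a protein specific to the U3 particle, which guides early cleavage. Nop56 (chromosome 2, 130274430 to 130279313) had 419.57, 336.15 and 453.86 FPKM in Emp1-deficient libraries, against 364.26, 307.36 and 309.38 FPKM in controls. Replicates 1 and 3 of the Emp1-deficient group were above all controls and replicate 2 lay between them, giving means of 403 ± 60.5 FPKM in Emp1-deficient libraries and 327 ± 32.3 FPKM in controls (difference 0.29, SE 0.14, unadjusted p = 0.059, limma adjusted p = 0.332). Its partner Nop58 averaged 228 ± 15.6 FPKM in Emp1-deficient libraries and 215 ± 13.8 FPKM in controls (difference 0.09). Fbl averaged 112 ± 12.9 FPKM in Emp1-deficient libraries and 116 ± 11.3 FPKM in controls, and Rrp9 61.35 ± 9.76 FPKM in Emp1-deficient libraries and 61.1 ± 6.53 FPKM in controls. All 3 had overlapping libraries. Within the summed FPKM of Nop56, Nop58 and Fbl, the Nop56 share was 54.1 ± 3.66% in Emp1-deficient and 49.7 ± 3.49% in control libraries, and the shares of all 3 overlapped between genotypes.

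The box H/ACA genes, whose particles convert uridine to pseudouridine and are also part of telomerase, differed among themselves. Gar1 and Nhp2 had positive differences, Nop10 a negative one, and the catalytic subunit Dkc1 a difference near 0. Gar1 (chromosome 3, 129824912 to 129831396) had 47.27, 33.53 and 41.71 FPKM in Emp1-deficient libraries, against 31.96, 22.83 and 35.06 FPKM in controls. Emp1-deficient replicate 2 lay below control replicate 3 and the other libraries were ordered by genotype, with means of 40.8 ± 6.91 FPKM in Emp1-deficient libraries and 29.95 ± 6.36 FPKM in controls. This was the largest difference of the 32 members (0.44, SE 0.18, unadjusted p = 0.036), and it did not pass over all genes (limma adjusted p = 0.268). Nop10 had 124.05, 94.0 and 106.39 FPKM in Emp1-deficient libraries, against 133.39, 106.23 and 130.53 FPKM in controls, with overlapping libraries and a difference of -0.19 (limma adjusted p = 0.541). Nhp2, which binds the guide RNA together with the others, averaged 145 ± 28.2 FPKM in Emp1-deficient libraries and 126 ± 12.2 FPKM in controls (difference 0.19). Dkc1, the pseudouridine synthase dyskerin, averaged 159 ± 17.7 FPKM in Emp1-deficient libraries and 154 ± 12.2 FPKM in controls (difference 0.04).

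As a share of the 4 H/ACA transcripts within each library, an arrangement in which a library's overall level cancels, the groups separated for 3 of the 4 subunits. Gar1 made up 9.34%, 8.76% and 8.89% in Emp1-deficient libraries, against 6.89%, 5.63% and 8.18% in controls. Nop10 made up 24.5%, 24.6% and 22.7% in Emp1-deficient libraries, against 28.8%, 26.2% and 30.4% in controls. Nhp2 made up 31.8 ± 1.94% in Emp1-deficient libraries and 29.0 ± 0.835% in controls, also without overlap. Dkc1 made up 35.3 ± 2.71% in Emp1-deficient libraries and 35.7 ± 3.79% in controls, with overlap. Over the 5 assemblies compared in this way, with 16 shares in all, 3 were higher and 3 lower without overlap and 10 overlapped. The 2 shares of the polymerase pair mirror each other and count as 1 observation, and no test was made on the shares. There is no background over other genes for this count. Shares of a sum also depend on each other: the Utp15 share was lower although its own level was 22.7 FPKM in Emp1-deficient and 22.4 FPKM in control libraries.

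**Figure D3:**
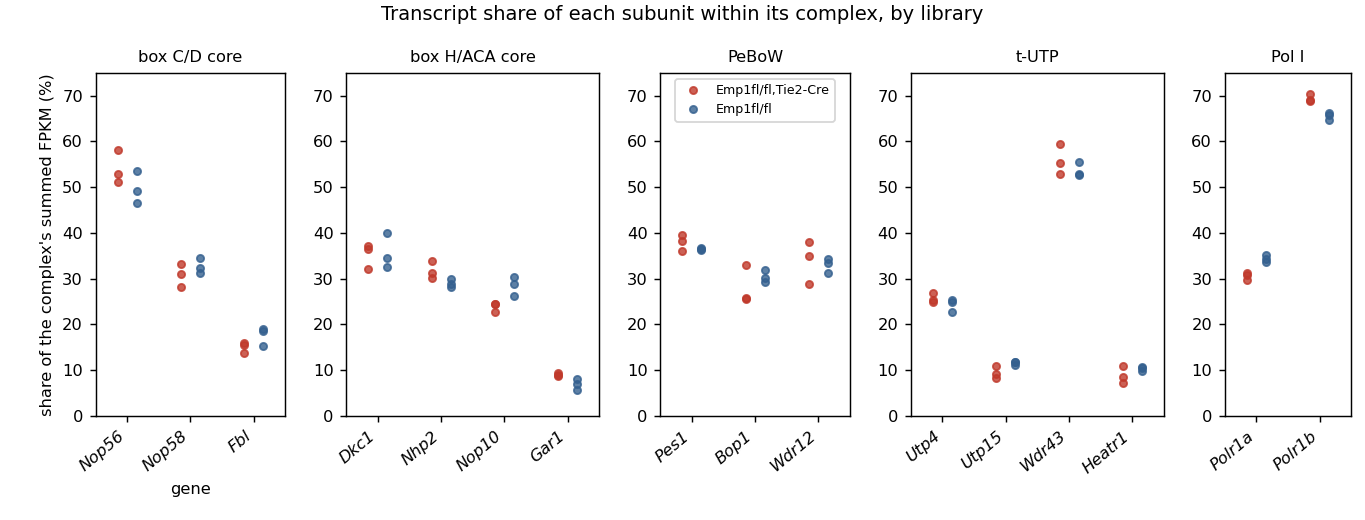
Share of each subunit transcript in its assembly's summed FPKM (%, linear axis from 0), 1 point per library, with Emp1-deficient libraries (red) left of control libraries (blue). Nop10, Utp15 and Polr1a sit lower and Gar1, Nhp2 and Polr1b higher in all 3 Emp1-deficient libraries than in any control, and the other 10 shares overlap.

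The small subunit group held the members with the smallest p-values. The processome is the large assembly that folds the 5′ part of the precursor, and Utp4, Utp15, Wdr43 and Heatr1 belong to its t-UTP subcomplex, which joins nascent transcripts early and was described in yeast as needed for their transcription. Utp4 (chromosome 8, 106893636 to 106923088), also known as cirhin, had 61.01, 55.32 and 68.07 FPKM in Emp1-deficient libraries, against 48.35, 44.45 and 48.89 FPKM in controls. Every Emp1-deficient library was above every control, with means of 61.5 ± 6.39 FPKM in Emp1-deficient libraries and 47.2 ± 2.42 FPKM in controls, a 1.30-fold difference (0.37, 95% interval 0.13 to 0.61, unadjusted p = 0.0070, limma adjusted p = 0.149). Wdr43 (chromosome 17, 71615895 to 71659031) had 119.52, 121.17 and 163.28 FPKM in Emp1-deficient libraries, against 101.68, 108.22 and 101.83 FPKM in controls. All Emp1-deficient libraries were again above all controls, although replicate 3 carried most of the distance (0.36, 95% interval 0.06 to 0.65, unadjusted p = 0.023, limma adjusted p = 0.226).

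The other t-UTP members had differences near 0. Utp15 averaged 22.7 ± 1.57 FPKM in Emp1-deficient and 22.4 ± 0.743 FPKM in control libraries (difference 0.01), and Heatr1, a long repeat protein, 21.04 ± 3.21 FPKM in Emp1-deficient libraries and 20.1 ± 0.688 FPKM in controls (difference 0.05). Within the summed FPKM of these 4 genes, not of the whole subcomplex, Utp15 made up 9.54 ± 1.30% in Emp1-deficient libraries. In controls it made up 11.6 ± 0.321%, without overlap. Utp20 (chromosome 10, 88746607 to 88826804), a very long processome protein, had 13.09, 13.77 and 13.86 FPKM in Emp1-deficient libraries, against 14.64, 17.41 and 15.28 FPKM in controls. All 3 Emp1-deficient libraries were below all controls, and the difference was -0.20 (SE 0.12, unadjusted p = 0.134, limma adjusted p = 0.469).

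The remaining small subunit genes overlapped between genotypes. Nop14, a processome component, averaged 24.6 ± 0.947 FPKM in Emp1-deficient and 23.4 ± 0.987 FPKM in control libraries (difference 0.07). Rrp12, a factor for export of the pre-small subunit known from yeast, differed by -0.08, and Bysl, which encodes bystin, by 0.08. Bysl shares 9.37% of its exon length with Ccnd3 on the opposite strand, and the sources used here do not state whether the counting used strand. Of the 8 small subunit members 6 were higher and 2 lower, with a median difference of 0.06.

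The 9 large subunit members all overlapped between genotypes, with 5 higher, 4 lower and a median difference of 0.02. Pes1, Bop1 and Wdr12 encode the PeBoW complex, which is needed for maturation of the large subunit RNA. Pes1 averaged 61.3 ± 7.85 FPKM in Emp1-deficient and 59.4 ± 3.09 FPKM in control libraries, and Wdr12 54.2 ± 2.45 FPKM in Emp1-deficient libraries and 53.5 ± 2.58 FPKM in controls. Bop1 had 58.73, 37.82 and 40.58 FPKM in Emp1-deficient libraries, against 50.99, 44.67 and 53.08 FPKM in controls. Emp1-deficient replicate 1 was the highest of the 6 and replicates 2 and 3 the lowest, so the difference of -0.14 had the widest error of the group (SE 0.16).

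Nop2 and Nop16 had the largest differences among these 9, with opposite signs. Nop2, an RNA cytosine methyltransferase and a long-used proliferation antigen, had 50.29, 54.63 and 65.08 FPKM in Emp1-deficient libraries, against 71.47, 61.64 and 60.5 FPKM in controls. Emp1-deficient replicate 3 lay within the control range and the other 2 below it (difference -0.19, SE 0.12, limma adjusted p = 0.497). Nop16, a large subunit factor known from yeast, had 56.93, 54.25 and 69.2 FPKM in Emp1-deficient libraries, against 56.47, 49.64 and 48.8 FPKM in controls. Only Emp1-deficient replicate 2 overlapped with the controls (difference 0.21, SE 0.12, limma adjusted p = 0.431). Gnl3 encodes nucleostemin, a GTP-binding nucleolar protein named for its abundance in stem cells, and averaged 134 ± 10.6 FPKM in Emp1-deficient libraries and 126 ± 11.1 FPKM in controls (difference 0.10). Noc2l, a nucleolar factor that also inhibits histone acetylation, averaged 27.7 ± 0.492 FPKM in Emp1-deficient libraries and 25.4 ± 1.93 FPKM in controls (difference 0.13), and it shares 20.9% of its exon length with Samd11 on the opposite strand. Rrs1, which in yeast helps to incorporate the smallest ribosomal RNA, averaged 44.7 ± 3.97 FPKM in Emp1-deficient libraries and 47.8 ± 3.30 FPKM in controls (difference -0.10). Rrp1b, a nucleolar protein related to a yeast factor of the same pathway, averaged 43.8 ± 2.99 FPKM in Emp1-deficient libraries and 45.6 ± 2.48 FPKM in controls (difference -0.06).

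The last 2 members differed in direction. Mybbp1a (chromosome 11, 72441355 to 72451768) encodes a nucleolar protein that binds MYB and p53 and that takes part in polymerase I transcription. It had 72.37, 63.82 and 63.29 FPKM in Emp1-deficient libraries, against 74.62, 74.39 and 80.67 FPKM in controls. All Emp1-deficient libraries were below all controls, with the largest negative difference of the 32 members (-0.20, SE 0.10, unadjusted p = 0.066, limma adjusted p = 0.347). Ddx21, an RNA helicase that couples polymerase I transcription with processing, averaged 36.8 ± 3.01 FPKM in Emp1-deficient libraries and 33.3 ± 2.82 FPKM in controls (difference 0.14, limma adjusted p = 0.604), with overlapping libraries.

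The members varied together between Emp1-deficient libraries, and less so between controls. Emp1-deficient replicate 1 was the highest of the 6 libraries for 13 of 32 members, against 19.0% of all tested genes, and Emp1-deficient replicate 2 was the lowest for 12 of 32, against 10.54%. Replicate 1 exceeded replicate 2 for 26 of 32 members (45.1% of all tested genes), and replicate 3 exceeded replicate 2 for 28 of 32 (38.8%). Among controls, replicate 1 exceeded replicate 2 for 23 of 32 members (44.9% of all tested genes). Control replicate 3 exceeded replicate 2 for 18 of 32 (40.4%), and control replicate 1 exceeded replicate 3 for 15 of 32 (53.5%). Averaged over the 32 genes, after centring each gene on its mean over the 6 libraries, the Emp1-deficient libraries stood at 0.11, -0.093 and 0.044 and the controls at 0.010, -0.070 and -0.0024 on the log2 scale. The 118 other pathway genes described below had the same order within the Emp1-deficient group, at 0.073, -0.031 and 0.042 in Emp1-deficient libraries, against 0.015, -0.056 and -0.043 in controls. The mean of the members' level was 0.021 ± 0.104 in Emp1-deficient libraries and -0.021 ± 0.043 in controls (SD, n = 3 each), a difference of 0.04 that lies inside the range of the Emp1-deficient libraries. The members' summed share of FPKM was 0.426%, 0.380% and 0.415% in Emp1-deficient libraries, against 0.403%, 0.402% and 0.412% in controls. For 22 of the 32 members the SD of log2 values was larger among Emp1-deficient than among control libraries, as it was for 56.2% of all tested genes. Summed FPKM of 11 proliferation genes was 1271, 1115 and 1117 in Emp1-deficient libraries and 1348, 1141 and 1058 in controls, so the groups overlapped in these genes also. Like the members' average level, this sum was highest in replicate 1 and lowest in replicate 2 of the Emp1-deficient group, with replicates 2 and 3 nearly equal. Single genes were divided: Pcna and Mcm2 had this order, whereas Top2a and Ccnb1 did not. The sums of the B, plasma and T cell, the monocyte and the erythroid lists given next also had this order, but not those of the lists after them. Summed FPKM of 12 B, plasma and T cell markers stood at 1821, 618 and 1330 in Emp1-deficient libraries, against 409, 813 and 800 in controls. The immunoglobulin gene Igkc and Nkg7 made up most of that sum, and the T cell gene Cd3d was at most 0.19 FPKM in any library. In that list Ighm stood at 10.44, 9.11 and 4.32 FPKM in Emp1-deficient libraries, against 44.16, 215.42 and 8.93 FPKM in controls. The sum of 10 monocyte, macrophage and dendritic cell markers was 432, 364 and 365 in Emp1-deficient libraries, against 419.9, 416 and 412 in controls, and that of 7 erythroid markers 128, 79.96 and 85.3 in Emp1-deficient libraries, against 91.5, 147 and 77.1 in controls. The sum of 11 stem cell markers ran otherwise, at 637, 812 and 864 in Emp1-deficient libraries, against 939, 895 and 760.2 in controls. So did 8 neutrophil markers (563, 643 and 954, controls 730, 592 and 754) and 6 megakaryocyte and platelet markers (684, 542 and 900, controls 698, 637 and 827). Neither 4 endothelial markers (52.4, 67.7 and 58.1, controls 60.6, 61.9 and 50.6) nor 3 markers the gate removes (77.0, 71.5 and 48.2, controls 88.2, 93.1 and 55.0) had the members' order. The part of any of these lists in the order of the libraries was not tested.

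**Figure D4:**
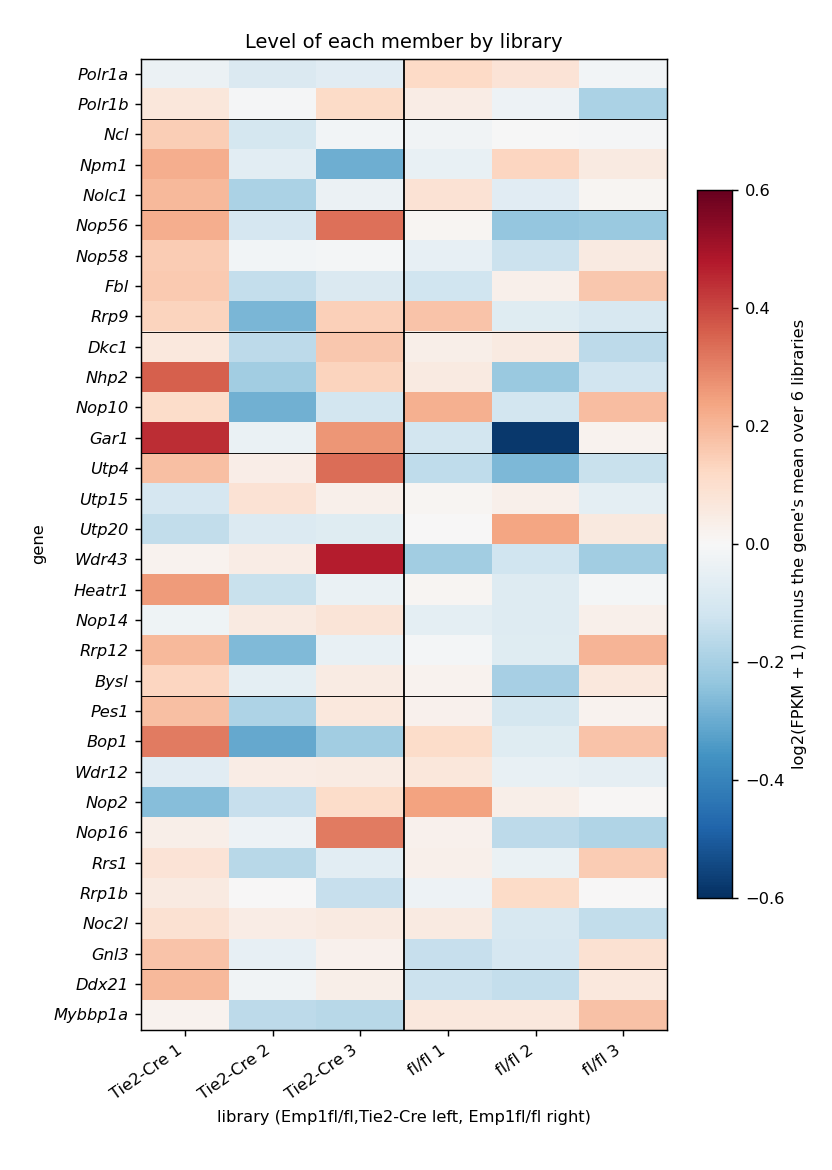
Level of each member in each library as log2(FPKM + 1) minus the gene's mean over the 6 libraries (colour scale from -0.6 to 0.6), Emp1-deficient libraries left of the vertical line and control libraries right of it. Red predominates in Emp1-deficient replicate 1 and blue in Emp1-deficient replicate 2, whereas no block of rows divides along the genotype line.

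Around the members, 118 other genes of the pathway were tested, and 0 passed by limma over all genes (smallest adjusted p = 0.0944). Among tested genes at or above the lowest member's mean level, 11.0% were higher and 10.9% lower at an unadjusted limma p under 0.05. Of the 118, 19 were higher (16.1%, all tested genes 6.5%) and 5 were lower (4.24%, all tested genes 9.72%). That imbalance depends on the scaling and on single libraries: 11 were higher and 9 lower after rescaling to TPM, 13 and 9 without Emp1-deficient replicate 1, 8 and 2 when Emp1-deficient replicate 3 was left out, 9 and 3 when control replicate 2 was, and 11 and 2 when control replicate 3 was. In all 74 of the 118 were higher (62.7%), with a median of 0.073, and 65 after rescaling to TPM. By sign, 43.1% of all tested genes were higher, and 50.8% of those at or above the lowest member's mean level. Higher genes were most frequent in the large subunit list, with 30 of 37 (26 with TPM values and 28 after quantile normalization), and the nuclear exosome, with 11 of 12 (9 under either scaling), while 20 of 41 small subunit genes were higher. The smallest p-value belonged to Brix1, a large subunit assembly factor, with 50.49, 47.3 and 57.31 FPKM in Emp1-deficient libraries, against 36.31, 39.2 and 33.7 FPKM in controls (0.49, limma adjusted p = 0.0944). Mphosph6, which works with the exosome, averaged 52.5 ± 5.07 FPKM in Emp1-deficient libraries and 37.6 ± 3.83 FPKM in controls. The processome gene Utp18 averaged 32.95 ± 8.997 FPKM in Emp1-deficient libraries and 19.6 ± 3.63 FPKM in controls, and the nucleolar GTPase gene Gnl2 105 ± 1.67 FPKM in Emp1-deficient libraries and 85.3 ± 3.84 FPKM in controls. In each of these 4 genes the libraries separated by genotype.

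On the lower side Imp3, a U3 particle protein, had 66.59, 65.49 and 59.2 FPKM in Emp1-deficient libraries, against 87.92, 78.28 and 90.77 FPKM in controls (-0.42, limma adjusted p = 0.105). Taf1c, a subunit of the promoter selectivity factor of polymerase I, averaged 5.61 ± 0.898 FPKM in Emp1-deficient libraries and 9.03 ± 0.962 FPKM in controls (-0.60, limma adjusted p = 0.135). Nol6, a processome protein, averaged 17.5 ± 3.24 FPKM in Emp1-deficient libraries and 24.7 ± 4.72 FPKM in controls. Nol9, a polynucleotide kinase of the large subunit pathway, averaged 17.7 ± 0.505 FPKM in Emp1-deficient libraries and 21.9 ± 2.095 FPKM in controls. All 4 were without overlap. Of the 7 initiation and termination genes of polymerase I, 2 were higher and 5 lower. Over all 118, the groups did not overlap for 20 higher genes (16.9%, background 8.91%) and 12 lower genes (10.2%, background 13.2%). Among tested genes at or above the lowest member's mean level, these shares were 14.1% and 13.6%. The members' shares, at 6.25% and 9.38%, were both below background, whereas the higher share of the 118 was above it. None of the 118 passed the adjusted threshold.

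**Figure D5:**
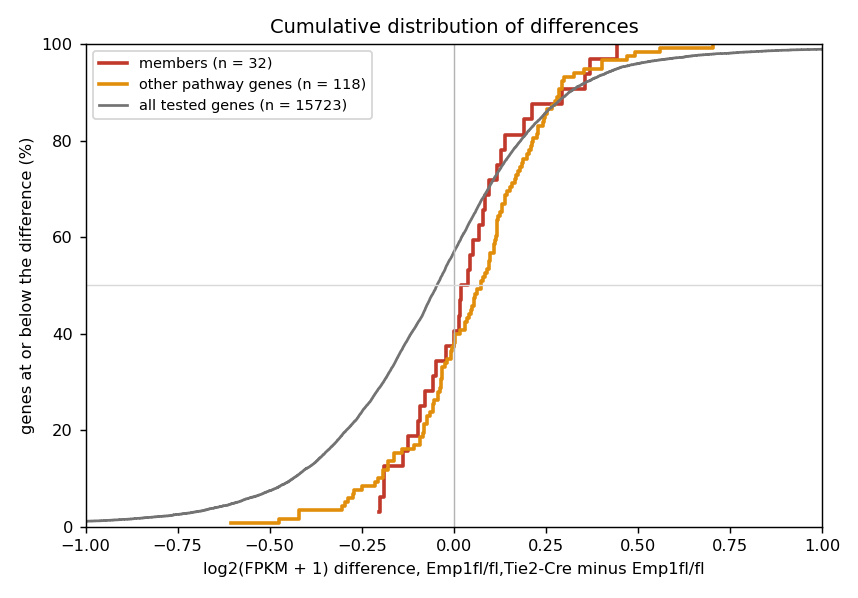
Cumulative share of genes (%) at or below each difference in log2(FPKM + 1), Emp1-deficient minus control, for the 32 members (red), 118 other pathway genes (orange) and all 15723 tested genes (grey), with the axis limited to -1 to 1. The medians are 0.029, 0.073 and -0.046, and both pathway curves are steeper than that of all genes.

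The spread of the pathway genes around the group means was small, with a median residual SD of 0.13 for the members against 0.20 for all tested genes and 0.15 for tested genes at or above the lowest member's level. Of 12 genes of growth and cell cycle control named beside the pathway, 1 passed the adjusted threshold by limma, against 0.267% of all tested genes. Cdkn1a, the p53 target that encodes the cell cycle inhibitor p21, rose to 1305.19, 1111.45 and 1292.85 FPKM in Emp1-deficient libraries, against 657.74, 713.93 and 788.86 FPKM in controls (0.78, limma adjusted p = 0.0488). That call is at the threshold: the difference was 0.72 to 0.85 in 15 alternatives, chosen for this gene after its values were seen, but the adjusted p by limma ran from 0.0215 to 0.185 and passed in 3 of them, and leaving out any single library ended it. Myc, the best-known transcriptional driver of ribosome biogenesis, was at 196.6, 333.92 and 322.01 FPKM in Emp1-deficient libraries, against 449.14, 364.96 and 295.45 FPKM in controls, with overlapping libraries (-0.40, limma adjusted p = 0.459). Emp1-deficient replicate 1, with the lowest Myc value, was the library with the highest average level of the members. Any relation of Myc to the members' levels was not tested. Mycn averaged 21.4 ± 7.60 FPKM in Emp1-deficient libraries and 31.2 ± 5.88 FPKM in controls, and Max, the shared partner of the family, 12.9 ± 1.66 FPKM in Emp1-deficient libraries and 15.5 ± 2.15 FPKM in controls. Trp53 averaged 214 ± 3.84 FPKM in Emp1-deficient libraries and 245 ± 29.1 FPKM in controls, without overlap (-0.19, limma adjusted p = 0.449). Tsc1, a growth-control gene, likewise separated, at 19.4 ± 0.702 FPKM in Emp1-deficient libraries and 17.8 ± 0.173 FPKM in controls (0.11, limma adjusted p = 0.664). The remaining genes of this list (Mxd4, Mnt, Mdm2, Mtor, Rptor and Tsc2) overlapped between genotypes, at means of 7.85 to 53.8 FPKM in Emp1-deficient libraries and 8.04 to 55.6 FPKM in controls.

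The factors assemble ribosomal RNA and ribosomal proteins. The deposited values cover a transcript annotated as ribosomal RNA and the transcripts of ribosomal protein genes, but no protein. A transcript annotated as ribosomal RNA (CT010467.1, GRCm38 chromosome 17, 39846353 to 39848827) was listed at 12733, 9633 and 4534 FPKM in Emp1-deficient libraries, against 19141, 12233 and 17116 FPKM in controls. Emp1-deficient replicates 2 and 3 were below all controls and replicate 1 lay among them (8967 ± 4139 FPKM in Emp1-deficient libraries and 16163 ± 3551 FPKM in controls, exact two-sided permutation p = 0.2, where the smallest possible with 3 against 3 is 0.1). How this value relates to the ribosomal RNA content of the cells was not tested. Of 80 cytosolic ribosomal protein genes, 69 were lower and 0 passed by limma (smallest adjusted p = 0.162), with a median of -0.24. At an unadjusted limma p under 0.05, 14 were lower (17.5%, background 9.72%) and 1 was higher (1.25%, background 6.5%). Among tested genes at or above the lowest member's mean level, 10.9% were lower and 11.0% higher. The 14 became 36 after rescaling to TPM, 38 after quantile normalization, 28 with array weights, 58 without Emp1-deficient replicate 1, 3 without Emp1-deficient replicate 2, 1 without control replicate 1, and 0 when either Emp1-deficient replicate 3 or control replicate 3 was left out. Their average centred level in Emp1-deficient replicate 3 was -0.37, while that of the biogenesis factors in the same library was 0.044, and without that library the ribosomal protein median was -0.089 and that of the factors 0.024.

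A further feature that the members share is that several carry snoRNA genes inside them. Ncl, Nop56, Nop58, Dkc1, Wdr43 and Gnl3 hold 19 annotated snoRNA genes between them, so that 6 of 32 members (18.75%) are hosts, against 1.88% of 12134 tested protein-coding genes. These RNAs are cut from the introns of their hosts and guide the same modifications that the snoRNP proteins carry out. Of the 19, 14 were listed at 0 in all 6 libraries.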

How the data were processed

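Per the labels' protocols, RNA of the sorted HSCs went through reverse transcription and Geo-seq amplification, which serves small inputs, and the TruePrep V2 kit was used for the libraries. The submitters' processing notes list Bowtie 0.12.9, Cufflinks 2.1.1, HTSeq, DESeq2 and mm10, with no role or order. The authors deposited FPKM per Ensembl gene and library. The depth is unknown: steps among low values put 4 libraries at 0.768 to 0.986 of control replicate 1, and for Emp1-deficient replicate 3 the steps gave near-equal peaks at 0.933 and 1.97, so its depth was not resolved.

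Symbols and coordinates came from GENCODE M21 (GRCm38), which matched 55141 of 55401 identifiers. Genes that reached 1 FPKM in 3 or more libraries were tested on the log2(FPKM + 1) scale by limma 3.58.1 under R 4.3.3 (empirical Bayes with trend and robust settings, genotype as the only term, two-sided, Benjamini-Hochberg over all tested genes). Fold changes on this scale understate those of low genes. The fit was tested on simulated data. All 32 members are named. Of the other pathway genes the 4 with the smallest p per direction among those under 0.05 are named, and of the growth and cell cycle control genes all tested. Replicate numbers were taken as names, not pairs. The members and lists were chosen with earlier results of these data known. Promoter windows came from RefSeq (GRCm38.p6), and pseudogene copies were found with blastn 2.17.0. Alternatives covered the pseudocount, the filter, the scaling, library weights, a replicate block and each library left out.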

Additional observations from a re-analysis of the deposited data

How the results depend on the processing

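No member passed the adjusted threshold in any of the 15 alternatives, and the lowest adjusted p by limma was 0.097 (Utp4, with protein-coding genes of at least 400 bases of exons only). The sign held in all of them for 20 of the 32 members and changed in at least 1 for 12, all 12 with differences under 0.1 at the outset. Members at an unadjusted p under 0.05 numbered 3, against 5 with array weights (4 higher, 1 lower) and 2 to 5 with a library left out. Without Emp1-deficient replicate 1 these were 2 higher and 3 lower, and without Emp1-deficient replicate 2 they were 5 higher. The members' median was -0.0086 without Emp1-deficient replicate 1 and 0.095 without replicate 2. The cause was not tested.

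The number of all genes called was 42, against 29 with a pseudocount of 0.1, 15 with one of 5, 5 with no filter, 104 with a mean of at least 5 FPKM, 212 with the protein-coding genes, 28 with TPM values, 24 after quantile normalization, 82 with array weights and 5 to 40 with a library left out. Same-numbered libraries did not deviate together (correlations of -0.108, 0.0859 and -0.0523, and not every library correlated best with its own number), and the replicate block gave 8 genes called and 4 members at an unadjusted p under 0.05. With 3 libraries a group and unknown depth, the smallest difference that could be resolved ranged from about 0.21 to 0.41 on the log2 scale, depending on the member.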

Other observations

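The snoRNA genes inside the members that were not at 0 throughout were Gm24451 and Gm23187 in Nop56, Snora75 in Ncl, Snord92 in Wdr43 and Snord69 in Gnl3, named after their values were seen. Gm24451 was listed at 83.22, 16.12 and 63.87 FPKM in Emp1-deficient libraries, against 44.42, 145.74 and 125.31 FPKM in controls. Gm23187 was listed at 17.6, 144.32 and 28.51 FPKM in Emp1-deficient libraries, against 0, 0 and 70.24 FPKM in controls. Both overlapped between genotypes and varied widely between libraries of a genotype. They overlap exon sequence annotated for Nop56, so reads of the host and of the snoRNA cannot be told apart. Snora75 was listed at 0 in all 3 Emp1-deficient libraries, against 4.75, 8.08 and 0 FPKM in controls. Per length such short genes turn few reads into large FPKM values, and no difference was read from them.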
